A study of Mus musculus with 10 samples.

Results

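The liver's genes of fatty acid oxidation, ketone body synthesis and the PPARα program were read in RNA-seq libraries of *db/db* livers from mice given either of a pair of viral vectors. The set holds 38 genes, chosen by name as the nuclear receptor PPARα, the enzymes and carriers of fatty acid oxidation, genes that PPARα is known to control, and a pair of enzymes of ketone body metabolism. All 38 are among the 15126 protein-coding genes listed in the deposited table. *db/db* mice lack a working leptin receptor and become obese, diabetic and steatotic. Male *db/db* mice were given an adeno-associated virus of serotype 8 (AAV8) that encoded eGFP in the AAV8-Control group and a mouse transgene in the group called AAV8-Test. Each group has 5 libraries, called livers here, although the labels do not tie each library to a mouse. The labels place the livers at 10 weeks of age and 5 weeks after the vector. The study delivered the vector by tail vein and describes the expression as hepatocyte-specific, with the promoter not given in the sources used here. Some label fields name primary hepatocytes, culture and adenovirus, while the tissue field, the genotype field and the study's text name liver and AAV8. The 5 hepatocyte markers examined summed to 90413 to 124497 CPM in the AAV8-Control livers and to 98422 to 115622 CPM in the AAV8-Test livers, and every marker of Kupffer cells, sinusoidal endothelium and stellate cells examined had a mean of at least 1 CPM.

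Fatty acids enter hepatocyte mitochondria as carnitine esters, are shortened by the acyl-CoA dehydrogenases and the steps after them, and pass their electrons to the respiratory chain through the electron transfer flavoprotein. Very long and branched chains are first shortened in peroxisomes, and a minor route oxidizes the far (omega) end of the chain in the endoplasmic reticulum. In fasting, the acetyl-CoA that results is turned into ketone bodies. PPARα, activated by fatty acids, pairs with the receptor RXR on DNA and raises the transcription of genes along all of these routes.

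The level of a gene is given in CPM (its reads relative to those assigned to any gene), and libraries held 19499795 to 35498596 such reads. Differences were tested with limma on log2(CPM + 1) over the 11027 genes whose mean reached 1 CPM, and adjusted with the Benjamini-Hochberg method. All 38 genes passed that filter. As the libraries are from whole tissue, fewer cells of a type and less RNA per cell cannot be told apart.

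No gene of the set passed an adjusted p of 0.05 (limma, lowest adjusted p = 0.617), beside 0.0181% of all genes tested. At an unadjusted p under 0.05 there were 5 genes, all lower in AAV8-Test, which is 13.2% of the set. Of all genes tested, 7.95% had such a p, 2.97% with a lower and 4.99% with a higher level. They were *Bdh1* and *Acat1* of ketone body metabolism, *Pex11a* and *Acaa1b* of the peroxisome, and *Decr1* of unsaturated fatty acid oxidation. None of the set was higher at an unadjusted p under 0.05. By edgeR's quasi-likelihood test 5 genes had such a p, beside 9.11% of all genes, and by DESeq2 6 did, beside 9.17%. All were lower, and again none passed adjustment.

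The log2 fold change was below 0 for 31 of the 38 genes, which is 81.6%, beside 44.1% of all genes tested, of which 55.9% were above 0. Its median was -0.069 over the set and 0.019 over all genes tested, and it ran from -0.45 for *Acaa1b* to 0.13 for *Cyp4a10*. These are small differences. For 31 of the 38 genes the 95% interval of the difference lay within a 1.5-fold change either way, beside 92.1% of all genes tested. The intervals that crossed a 1.5-fold change were those of *Ehhadh*, *Acaa1b*, *Pex11a*, *Crat*, *Acot3*, *Vnn1* and *Pdk4*.

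**Figure D1:**
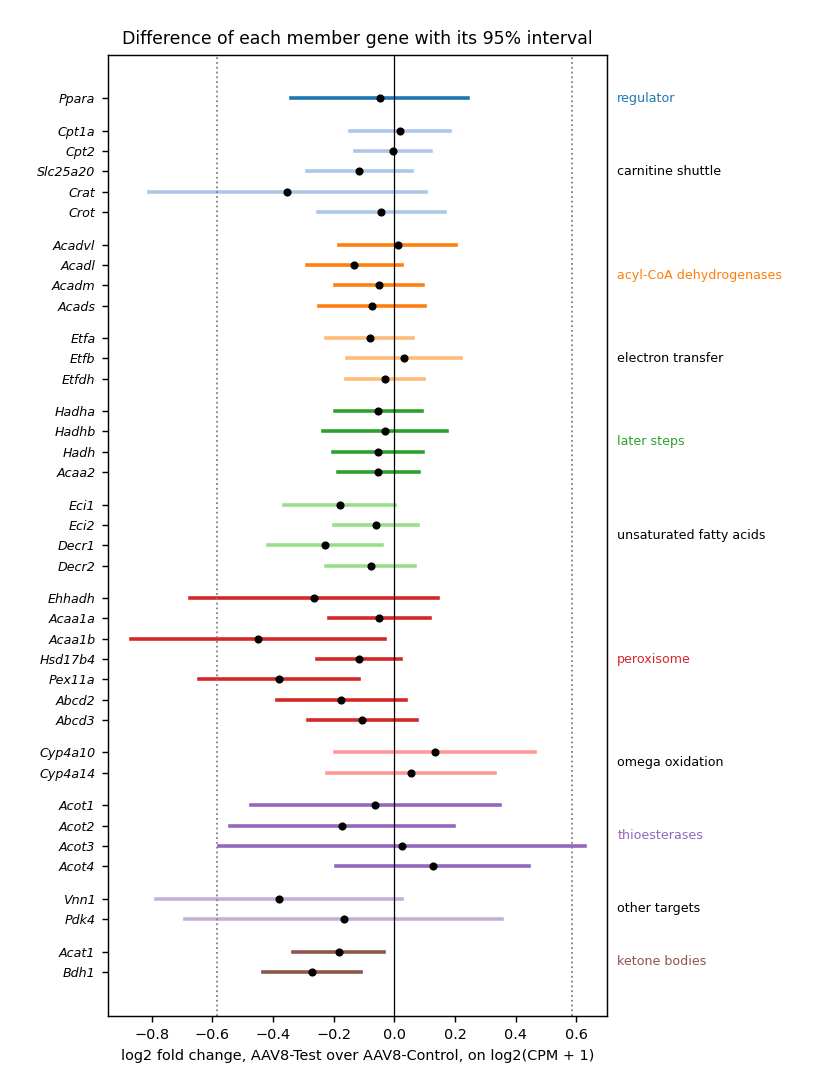
Log2 fold change of each of the 38 genes, AAV8-Test over AAV8-Control, on log2(CPM + 1) (x axis), by role (y axis). Points are limma estimates, bars are 95% intervals with n = 5 livers per group, and dotted lines mark a 1.5-fold change. The 7 genes grouped as peroxisomal and the 2 ketone body genes all lie left of 0, and none passed adjustment.

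Single livers stood out across the set. AAV8-Control 3 was the highest of the 10 livers for 20 genes, with a median of 109% of the AAV8-Control mean. AAV8-Test 4 was the lowest for 14 genes, with a median of 87.7%, and AAV8-Test 1 was the lowest for 8. AAV8-Test 2 had a median of 103%, within the AAV8-Control range of 93.7% to 109%. The number of genes with an unadjusted p under 0.05 was 2 without AAV8-Control 3, 3 without AAV8-Test 4, 3 without AAV8-Test 5 and 10 without AAV8-Test 2, and each of these genes was lower in AAV8-Test. The share of all genes tested with such a p moved as well, to 5.94%, 5.30%, 4.27% and 12.6% in that order, so that the 2 genes left without AAV8-Control 3 are near the background share. Of the other cell types' markers, the summed lymphocyte list lay at 3.91 to 6.93 CPM in the AAV8-Control livers and at 3.08 to 4.34 CPM in the others (exact permutation p = 0.0317). Of its 4 genes, 1 reached a mean of 1 CPM. The p was not adjusted over the cell type lists, and the other lists had exact permutation p from 0.222 (adipocyte) to 0.968 (hepatocyte). The part of the lymphocyte list in the differences was not tested. The 3 adipocyte markers summed to at most 1.74 CPM in any liver.

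**Figure D2:**
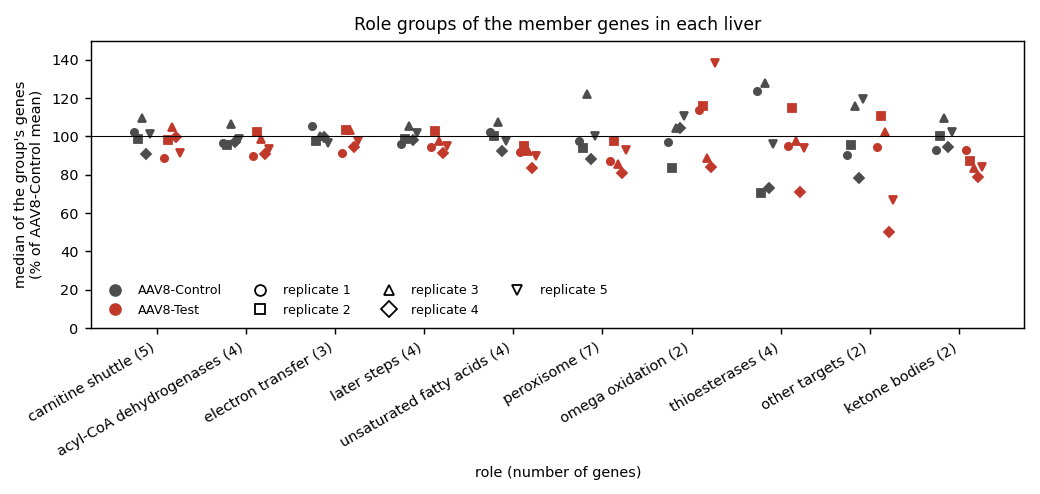
Median level of each role group's genes in each liver, as a percent of the AAV8-Control mean (y axis), by role with its number of genes (x axis). Grey symbols are AAV8-Control, red symbols are AAV8-Test, and shapes mark replicate numbers; AAV8-Control 3 is at 122% for the peroxisomal genes, where AAV8-Test 4 is at 80.7%.

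Promoter windows are shown for 3 genes, as PPARα acts at DNA: *Bdh1* and *Pex11a*, which had the smallest unadjusted p values of the set, and *Cpt1a*, the gene of the carnitine shuttle's first step. They come from RefSeq on GRCm38.p6 and run from 250 bases before to 50 bases after an annotated start, written 5′ to 3′ on the gene's strand. *Bdh1* has one window for each of its annotated starts, at chr16:31422047-31422346 and chr16:31428503-31428802 on the forward strand. *Pex11a* lies at chr7:79743082-79743381 on the reverse strand and *Cpt1a* at chr19:3323051-3323350 on the forward strand. Capitals mark the receptor half-site AGGTCA read on either strand.

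Bdh1, first start: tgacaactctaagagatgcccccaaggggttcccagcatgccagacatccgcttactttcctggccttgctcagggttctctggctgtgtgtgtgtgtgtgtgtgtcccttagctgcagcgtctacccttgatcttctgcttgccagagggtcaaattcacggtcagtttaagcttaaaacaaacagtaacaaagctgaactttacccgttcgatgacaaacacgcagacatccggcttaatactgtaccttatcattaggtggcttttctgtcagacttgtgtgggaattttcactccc

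Bdh1, second start: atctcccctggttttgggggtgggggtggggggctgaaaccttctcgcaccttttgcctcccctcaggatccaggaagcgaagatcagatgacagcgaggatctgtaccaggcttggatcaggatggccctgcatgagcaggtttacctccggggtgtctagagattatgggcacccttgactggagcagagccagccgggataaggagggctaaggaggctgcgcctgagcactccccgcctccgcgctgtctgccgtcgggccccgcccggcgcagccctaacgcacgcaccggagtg

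Pex11a: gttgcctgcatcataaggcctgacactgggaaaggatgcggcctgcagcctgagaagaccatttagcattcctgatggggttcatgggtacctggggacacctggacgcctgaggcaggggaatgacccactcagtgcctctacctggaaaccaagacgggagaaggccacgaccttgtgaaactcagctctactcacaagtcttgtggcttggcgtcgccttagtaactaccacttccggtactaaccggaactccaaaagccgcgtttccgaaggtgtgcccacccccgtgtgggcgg

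Cpt1a: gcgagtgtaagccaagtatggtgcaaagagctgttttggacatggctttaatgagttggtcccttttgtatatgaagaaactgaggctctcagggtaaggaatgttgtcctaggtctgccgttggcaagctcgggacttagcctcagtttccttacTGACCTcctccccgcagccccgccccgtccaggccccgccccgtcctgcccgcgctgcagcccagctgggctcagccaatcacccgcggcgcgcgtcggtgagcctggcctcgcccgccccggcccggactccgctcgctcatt

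The *Bdh1* and *Pex11a* windows held no AGGTCA on either strand. The *Cpt1a* window held 1, on the reverse strand, so that it reads TGACCT above, with its first base at position -94 from the start. Windows were found for 29 of the 38 genes, 32 windows in all. The full element of the receptor pair, AGGNCA followed by any base and AGGNCA again, searched on both strands, was in 0 of the 32 windows and in 0.381% of all 32851 windows of this length. AGGTCA, of which a copy can lie within the longer motif, was in 6 of the 32 windows, those of *Acadm*, *Acadvl*, *Acot3*, *Acot4* and *Cpt1a*, and in 16.3% of all windows. The letters describe these short windows only.

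*Bdh1* encodes the mitochondrial dehydrogenase that interconverts acetoacetate and 3-hydroxybutyrate. It was at 279, 293, 334, 275 and 300 CPM in AAV8-Control 1 to 5 and at 260, 259, 255, 217 and 234 CPM in AAV8-Test 1 to 5. Each AAV8-Test liver was below every AAV8-Control liver, and *Bdh1* was the only gene of the set whose groups did not overlap, beside 0.907% of all genes tested, 0.435% lower and 0.472% higher. The level was 17.3% lower in AAV8-Test, a log2 fold change of -0.27 (standard error 0.075, limma unadjusted p = 0.00315, adjusted p = 0.617). The two-sided exact permutation test gave p = 0.00794, the smallest it can give with 5 livers against 5. Its unadjusted p stayed under 0.05 in all 18 alternatives. With scaling by DESeq2's size factors or by TMM, the *Bdh1* groups overlapped, and those of *Decr1* and *Pex11a* did not, beside 1.17% and 1.18% of all genes tested under these scalings.

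The antisense transcript *Gm15743* covers 13.7% of the exon bases of *Bdh1*. The study counted only reads that were unambiguous between genes, and its methods do not say that strand was kept. Reads in the shared bases may therefore be missing from the *Bdh1* level, which was not tested.

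*Acat1*, the mitochondrial thiolase that joins or splits acetoacetyl-CoA, was at 482, 533, 559, 508 and 546 CPM in AAV8-Control 1 to 5. In AAV8-Test 1 to 5 it was at 514, 459, 427, 443 and 470 CPM. The highest AAV8-Test liver, AAV8-Test 1, lay within the AAV8-Control range, and the other 4 lay below it. The level was 12.0% lower, a log2 fold change of -0.18 (standard error 0.070, limma unadjusted p = 0.0207, exact permutation p = 0.0238). Without AAV8-Control 3 the unadjusted p of *Acat1* was 0.0513, the highest with any library left out, and without AAV8-Test 3 it also exceeded 0.05.

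**Figure D3:**
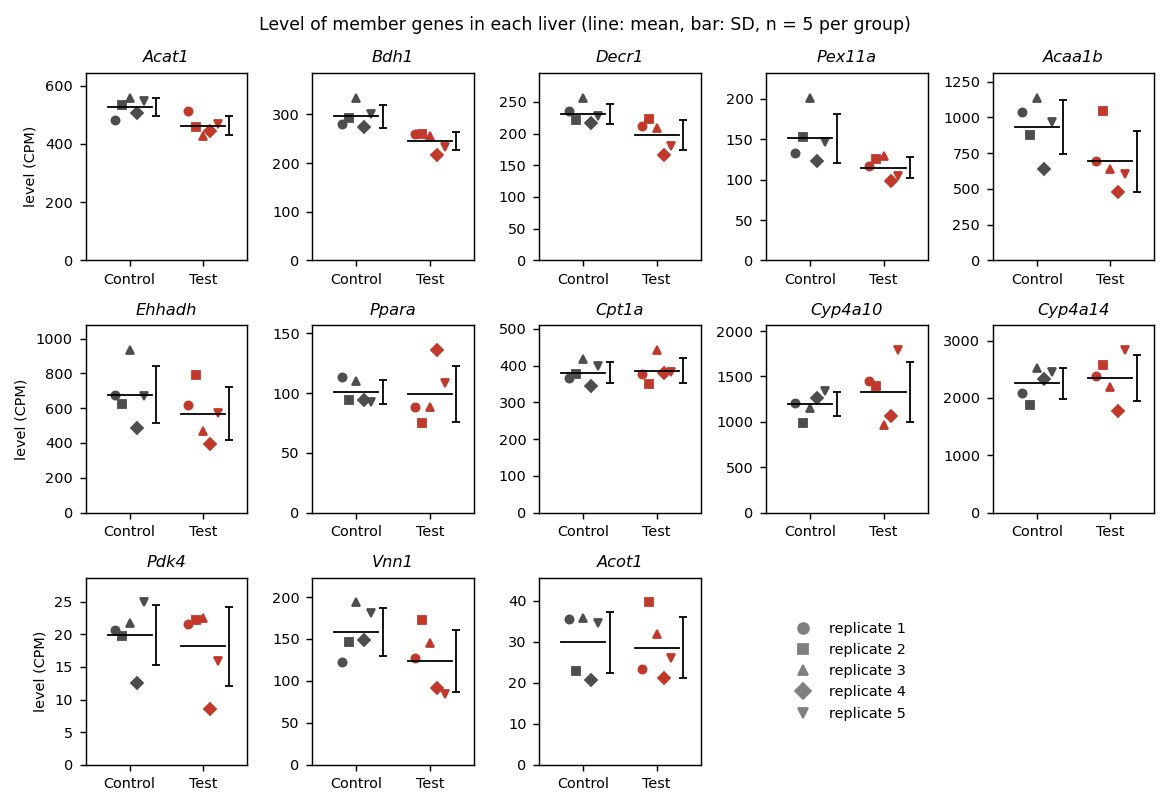
Level in CPM (y axis, from 0) of 13 genes in each of 5 AAV8-Control (grey) and 5 AAV8-Test livers (red), with shapes for replicate numbers, a line for the mean and a bar for the SD. *Bdh1* is the only panel in which the groups do not overlap, while *Ppara*, *Cpt1a*, *Cyp4a10* and *Cyp4a14* overlap broadly.

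All 7 genes grouped by role as peroxisomal had a log2 fold change below 0, beside 44.1% of all genes tested, with a median of -0.18. Other genes of the set that act at least partly in peroxisomes were grouped by other roles. Among these, *Crot*, *Eci2* and *Decr2* were below 0, and *Acot3* and *Acot4* were above 0. An unadjusted p under 0.05 was found for 2 of the 7, beside 2.97% of all genes tested that were lower at that p. *Pex11a*, a membrane protein that takes part in peroxisome division, was at 133, 153, 202, 123 and 146 CPM in AAV8-Control 1 to 5 and at 118, 125, 129, 98.3 and 105 CPM in AAV8-Test 1 to 5. The groups overlapped through AAV8-Control 4, and AAV8-Control 3 was far above the other livers. The log2 fold change was -0.38 (standard error 0.12, limma unadjusted p = 0.00852, exact permutation p = 0.0238), and it ranged from -0.45 to -0.27 with each library left out in turn. The unadjusted p of *Pex11a* was under 0.05 in all 18 alternatives.

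*Acaa1b* encodes a peroxisomal 3-ketoacyl-CoA thiolase, the last step of the chain-shortening cycle. It was at 1040, 875, 1138, 638 and 971 CPM in AAV8-Control 1 to 5 and at 696, 1042, 641, 476 and 607 CPM in AAV8-Test 1 to 5. AAV8-Control 4 was among the low livers and AAV8-Test 2 among the high ones. The log2 fold change was -0.45 (standard error 0.19, limma unadjusted p = 0.0370), and the exact permutation test gave p = 0.119. The unadjusted p of *Acaa1b* was under 0.05 in 11 of the 18 alternatives. It exceeded 0.05 without AAV8-Control 1, 3 or 5 or AAV8-Test 1, 3, 4 or 5, and was highest, at 0.0994, without AAV8-Test 4. Of the 50-base stretches of *Acaa1b* transcripts, 30.5% also occur in its close copy *Acaa1a*, and only uniquely aligned reads were counted. The mean of *Acaa1a* was 130 ± 12.3 CPM in AAV8-Control livers and 126 ± 9.25 CPM in the others (SD, n = 5 each), with a log2 fold change of -0.049.

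*Ehhadh*, the peroxisomal enzyme that carries out the middle steps of the cycle and a classical PPARα target, was at 678, 621, 935, 486 and 670 CPM in AAV8-Control 1 to 5. In AAV8-Test 1 to 5 it was at 617, 789, 466, 394 and 572 CPM. The groups overlapped, with AAV8-Control 3 the highest and AAV8-Test 4 the lowest liver, and the log2 fold change was -0.27 (95% interval -0.67 to 0.14, limma unadjusted p = 0.184). *Hsd17b4*, which serves the same steps for branched and very long chains, was at 621 ± 35.6 and 573 ± 25.1 CPM (SD, n = 5 each), with a log2 fold change of -0.12. Its exact permutation p was 0.0476 and its limma unadjusted p 0.0917. *Abcd2* and *Abcd3*, transporters of acyl-CoA across the peroxisomal membrane, had log2 fold changes of -0.18 and -0.11. Without AAV8-Control 3 the log2 fold changes of *Abcd2*, *Abcd3* and *Ehhadh* were -0.081, -0.059 and -0.14, and without AAV8-Test 4 that of *Ehhadh* was -0.14.

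The 4 enzymes that handle double bonds also all had a log2 fold change below 0, with a median of -0.13. *Decr1*, the mitochondrial 2,4-dienoyl-CoA reductase, was at 236, 221, 257, 217 and 227 CPM in AAV8-Control 1 to 5 and at 211, 224, 209, 166 and 181 CPM in AAV8-Test 1 to 5. AAV8-Test 2 was the one AAV8-Test liver within the AAV8-Control range. The log2 fold change was -0.23 (standard error 0.086, limma unadjusted p = 0.0205, exact permutation p = 0.0238). Without AAV8-Test 4 the unadjusted p of *Decr1* was 0.0568, and it also exceeded 0.05 without AAV8-Test 5 or AAV8-Control 3. The enoyl-CoA isomerase *Eci1* had a log2 fold change of -0.18 (95% interval -0.36 to 0.0029, limma unadjusted p = 0.0533), and *Eci2* and the peroxisomal reductase *Decr2* had -0.061 and -0.079.

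The carnitine shuttle carries fatty acids into mitochondria. *Cpt1a*, which makes the carnitine esters at the outer membrane and sets the rate of entry, was at 367, 376, 417, 345 and 398 CPM in AAV8-Control 1 to 5. In AAV8-Test 1 to 5 it was at 376, 349, 443, 380 and 381 CPM. The groups overlapped almost fully, and the 95% interval of the fold was 0.90 to 1.14. The estimate of *Cpt1a* was 0.019 on the log2 scale and lay just below 0 with DESeq2's size factors or TMM. *Cpt2*, its partner at the inner membrane, was at 201 ± 7.87 and 200.2 ± 9.64 CPM (SD, n = 5 each). The carrier *Slc25a20* had a log2 fold change of -0.12 (-0.073 without AAV8-Control 3 and -0.070 without AAV8-Test 4). The carnitine acyltransferases *Crat* and *Crot*, grouped with the shuttle though not steps of the entry of long chains, had -0.35 and -0.043. For *Crat* the interval was wide, from -0.81 to 0.10.

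The acyl-CoA dehydrogenases *Acadvl*, *Acadl*, *Acadm* and *Acads*, which start the cycle on chains from very long to short, had log2 fold changes of 0.011, -0.13, -0.052 and -0.074. The lowest unadjusted p among the 4 was that of *Acadl* (limma, p = 0.0889, exact permutation p = 0.0873). *Acadvl* shares 42.9% of its exon bases with the opposite-strand gene *Dvl2*, and its sign turned with DESeq2's size factors or TMM. For the electron transfer flavoprotein and its oxidoreductase, *Etfa*, *Etfb* and *Etfdh*, the log2 fold changes were -0.082, 0.032 and -0.030. The value of *Etfb* is uncertain, as 58.2% of its exon bases overlap other annotated genes, mostly *Gm45233* on the same strand.

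The later steps were carried by *Hadha* and *Hadhb*, subunits of the trifunctional protein, the dehydrogenase *Hadh* and the thiolase *Acaa2*. Their log2 fold changes lay between -0.055 and -0.031, and the 95% interval of each lay within a 1.5-fold change. *Hadhb* was at 18.6 ± 2.18 CPM in AAV8-Control while its partner *Hadha* was at 447 ± 31.5 CPM (SD, n = 5 livers). Per kilobase of exon, *Hadha* was at 50.2 and *Hadhb* at 2.79 CPM. Of the 50-base stretches of *Hadhb* transcripts, 18.1% also occur in the processed pseudogene *Gm13910*, and what part this has in the level of *Hadhb* was not tested.

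*Ppara*, the receptor itself, was at 113, 94.1, 110, 94.5 and 92.5 CPM in AAV8-Control 1 to 5. In AAV8-Test 1 to 5 it was at 88.3, 75.2, 88.4, 136 and 108 CPM. The AAV8-Test livers held both the lowest and the highest level of the 10, so the SD was 23.8 CPM there and 9.91 CPM in AAV8-Control. AAV8-Test 4, with the highest *Ppara*, was the lowest liver for 14 genes of the set. The log2 fold change was -0.048 (95% interval -0.34 to 0.24, limma unadjusted p = 0.727), and it was 0.043 without AAV8-Test 2.

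The omega-oxidation enzymes *Cyp4a10* and *Cyp4a14*, cytochromes P450 that are among the best known PPARα targets of mouse liver, had slightly higher means in AAV8-Test, by less than the spread between livers. *Cyp4a10* was at 1211, 991, 1154, 1259 and 1345 CPM in AAV8-Control 1 to 5 and at 1449, 1398, 962, 1066 and 1794 CPM in AAV8-Test 1 to 5. *Cyp4a14* was at 2086, 1882, 2519, 2326 and 2446 CPM in AAV8-Control 1 to 5 and at 2389, 2570, 2191, 1774 and 2838 CPM in AAV8-Test 1 to 5. Both genes ranged more widely in AAV8-Test, with AAV8-Test 5 the highest of the 10 livers for each. Without AAV8-Test 5 the log2 fold changes were 0.018 and -0.019, in that order. The 95% interval of the fold was 0.87 to 1.38 for *Cyp4a10* and 0.86 to 1.26 for *Cyp4a14*. Of the 50-base stretches of *Cyp4a10*, 24.5% also occur in *Cyp4a32*, and others in *Cyp4a31*.

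Among the other classical targets, *Vnn1*, a pantetheinase, was at 122, 146, 194, 148 and 180 CPM in AAV8-Control 1 to 5. In AAV8-Test 1 to 5 it was at 127, 173, 145, 91.2 and 84.5 CPM. AAV8-Test 4 and 5 were below every AAV8-Control liver and the other 3 were within that range. The log2 fold change was -0.38 (95% interval -0.78 to 0.026, limma unadjusted p = 0.0644). *Pdk4*, the kinase that shuts off pyruvate dehydrogenase in fasting, was at 20.6, 19.7, 21.7, 12.5 and 24.9 CPM in AAV8-Control 1 to 5. In AAV8-Test 1 to 5 *Pdk4* was at 21.6, 22.2, 22.5, 8.54 and 15.9 CPM. Replicate 4 was the lowest of each group, and the log2 fold change was -0.17 (95% interval -0.69 to 0.35), or 0.065 without AAV8-Test 4.

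The acyl-CoA thioesterases split off the coenzyme, *Acot1* in the cytosol and *Acot2* in mitochondria. *Acot1* was at 35.6, 22.9, 35.7, 20.6 and 34.5 CPM in AAV8-Control 1 to 5 and at 23.5, 39.7, 32.0, 21.2 and 26.1 CPM in AAV8-Test 1 to 5. The livers of each group fell on both sides of the other group's mean, and the log2 fold change was -0.063 (95% interval -0.47 to 0.35). *Acot2*, *Acot3* and *Acot4* had log2 fold changes of -0.17, 0.025 and 0.13. That of *Acot2* was -0.043 without AAV8-Control 3 and -0.29 without AAV8-Control 4, and that of *Acot4* was -0.020 without AAV8-Control 2 and 0.22 without AAV8-Control 1. *Acot2* shares 24.5% of its 50-base stretches with *Acot1*, so single values in this family are uncertain.

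Compared per length of exon, the set spanned a wide range of levels. *Cyp4a14* was highest at 885 CPM per kilobase, followed by *Cyp4a10* at 599, *Acaa2* at 539, *Acaa1b* at 414 and *Ehhadh* at 209 CPM per kilobase. *Ppara* was at 26.1 CPM per kilobase, thirtieth of the 38. The lowest were *Hadhb*, *Acot4* and *Pdk4* at 2.79, 5.04 and 5.42 CPM per kilobase. The length holds every annotated exon base of a gene, used in liver or not, and reads that did not align uniquely were not counted. The order is therefore one of these values and may differ from that of the transcripts.

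**Figure D4:**
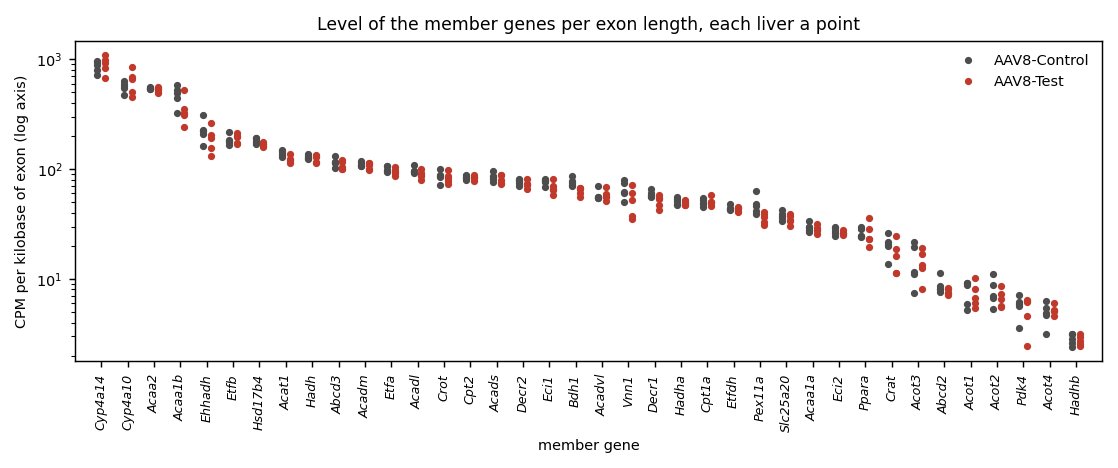
Level of the 38 genes in CPM per kilobase of exon (y axis, log scale), ordered by their mean (x axis). Each point is a liver, grey for AAV8-Control and red for AAV8-Test; *Cyp4a14* leads at a mean of 885 and *Hadhb* is last at 2.79 CPM per kilobase.

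The genes did not all vary together between livers. After each group's mean was taken away, the median Pearson r over the 703 pairs was 0.28 across the 10 livers, given as a description, since all pairs share the same libraries and scaling. The highest were *Hadha* with *Hsd17b4* at 0.96, *Eci1* with *Acaa1b* at 0.96 and *Acads* with *Etfb* at 0.95. *Pex11a* and *Bdh1* stood at 0.93, and *Ehhadh* and *Acaa1b* at 0.92. *Ppara* and *Crot* had a median r with the other genes of -0.22 and -0.31, and the lowest pair was *Cpt1a* with *Etfa* at -0.81.

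**Figure D5:**
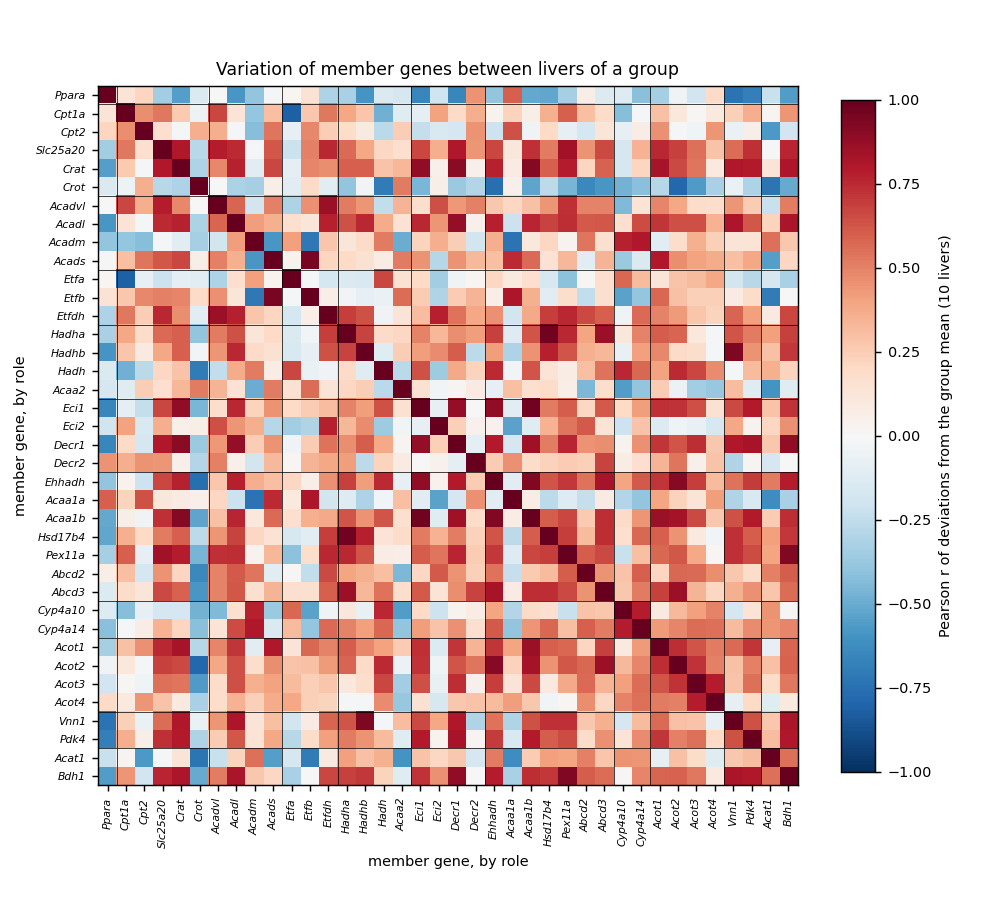
Pearson r between pairs of the 38 genes over 10 livers, computed on deviations from each group's mean of log2(CPM + 1) and coloured from -1 (blue) to 1 (red); genes run along both axes by role, with lines between roles. Rows of *Ppara* and *Crot* are mostly blue, and *Eci1*, *Ehhadh* and *Acaa1b* share red cells of 0.89 to 0.96.

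Whether the classical targets ranked the livers alike was examined for 6 pairs with *Cyp4a14*. With *Cyp4a10*, Pearson's r was 0.78 (permutation p = 0.00750, adjusted over the 6 pairs 0.0450) and Spearman's rho 0.73 (permutation p = 0.0208, adjusted 0.125), and r was 0.75 without AAV8-Control 2 and AAV8-Test 4. On deviations from the group means, r was again 0.78 but its adjusted permutation p was 0.122. With *Ehhadh*, *Pdk4*, *Acot1*, *Vnn1* and *Cpt1a*, r was 0.51, 0.44, 0.41, 0.20 and -0.00094, with Spearman's rho of 0.45, 0.38, 0.53, 0.30 and 0.14. Without AAV8-Control 2 and AAV8-Test 4 these r were 0.28, -0.15, -0.067, -0.20 and -0.11, so those of *Pdk4*, *Acot1* and *Vnn1* were positive only with that pair included. The pair was chosen as the 2 livers farthest from the median of *Cyp4a14*. Leaving it out narrows the range of *Cyp4a14*, which can weaken r by itself. Over the 10 livers, the lowest adjusted permutation p among these 5 pairs was 0.356 for r and 0.366 for rho. On deviations from the group means, *Ehhadh* had an r of 0.61 and a rho of 0.66 (adjusted permutation p = 0.254 and 0.203).

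Of 49 further genes of these pathways, 48 passed the filter, and *Cpt1b*, the muscle form of the carnitine acyltransferase, had a mean under 1 CPM. None of the 48 passed adjustment (limma), and at an unadjusted p under 0.05 there were 7 lower and 2 higher genes, beside 2.97% and 4.99% of all genes tested. Lower were, among others, *Nudt7* (log2 fold change -0.36, exact permutation p = 0.0238), a peroxisomal coenzyme A hydrolase, and *Scp2* (-0.30, exact permutation p = 0.0397), the peroxisomal sterol carrier and thiolase. So were the lipid genes *Fabp1*, *Plin2* and *Mgll*, with log2 fold changes of -0.70, -0.53 and -0.31 (exact permutation p = 0.0476, 0.0556 and 0.0635). *Fabp1* carries fatty acids in the cytosol, *Plin2* coats lipid droplets and *Mgll* splits monoacylglycerol. Higher were *Bdh2*, a cytosolic relative of the ketone body dehydrogenase, at 0.21 and the coactivator *Ppargc1a* at 0.44 (exact permutation p = 0.0635 and 0.0714). The unadjusted p of *Bdh2* was 0.0585 by edgeR and 0.0671 by DESeq2. The groups of 1 of the 48 genes did not overlap, with lower levels in AAV8-Test, beside 0.435% of all genes tested. Over the 48 genes the median log2 fold change was -0.025, and 29 were below 0, beside 44.1% of all genes tested.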

How the data were processed

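The authors made poly-A selected, single-read 50 base RNA-seq libraries and aligned them with STAR 2.0.4b to Ensembl release 76 (GRCm38.p2 in the submitters' processing notes). They counted uniquely aligned and unambiguous reads with featureCounts 1.4.5. The deposited values are CPM, scaled to all reads counted on genes. Dividing by the CPM of 1 read (0.0282 to 0.0513) gave whole reads for 100% of values within 0.01, used for the count tests. The 110 repeated lines were merged by gene identifier. The labels give no batch and do not say that each library is a separate mouse, so p-values measure the spread between libraries, which may be technical.

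limma 3.58.1 in R 4.3.3 was run on log2(CPM + 1) with a trended prior and Benjamini-Hochberg adjustment. edgeR 4.0.16, DESeq2 1.42.0, other scalings, pseudocounts and filters, a replicate block and leaving out each library were alternatives. Exact permutation tests were two-sided over 252 assignments, and those of correlations used 100000 resamples. Exon lengths, overlaps and 50-base stretches came from GENCODE M21.

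Every gene of the set is given. Values per liver are given for *Ppara*, *Cpt1a*, 6 classical targets, and genes with an unadjusted p under 0.05 or groups that do not overlap. The members and lists were chosen with earlier results of these data known. The AGGTCA search was added after the full element was not found. The transgene of AAV8-Test and some genes that the lists count are not reported here by name.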

Additional observations from a re-analysis of the deposited data

Results flagged for a closer look

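*Acadvl* in AAV8-Control 3 stood apart from the rest of its group, at 187 CPM where the next liver was at 151 CPM and the lowest at 145 CPM. Its gap to the next liver was 0.851 of the group's range, above Dixon's critical value of 0.71 for 5 samples. Of 76 groups examined, 1 was singled out in this way, and chance does so for about 1 in 20 groups. AAV8-Control 3 was also the highest liver for 20 of the 38 genes.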

How the results depend on the processing

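In every alternative no gene of the set passed adjustment, the median log2 fold change of the set stayed below 0, and every gene with an unadjusted p under 0.05 was lower in AAV8-Test. The sign of 25 of the 38 genes was the same in all 18 alternatives, and *Cyp4a10* was the only one of these that was higher. DESeq2's test on recovered reads gave 19 of all genes past adjustment in place of 2, 4 genes of the set higher in place of 7, and 2 with groups that did not overlap. DESeq2's size factors, TMM and edgeR with TMM also gave 2 such genes, beside 1.17% (size factors) and 1.18% (TMM) of all genes tested in place of 0.907%, and edgeR 4 higher genes. A filter of 10 reads in every library left 1 of all genes past adjustment.

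These scalings turned the sign of *Cpt1a* (-0.0016 with size factors, -0.0012 with TMM, -0.0022 with edgeR, -0.0029 with DESeq2's test) and of *Acadvl* (-0.0096, -0.0092, -0.014 and -0.015 in that order). The sign of *Acot3* turned to -0.024 with edgeR and -0.022 with DESeq2's test. They moved the median of all genes from 0.019 to between 0.00094 and 0.0018, and the share of all genes that were lower from 44.1% to between 49.6% and 49.7%.

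With each library left out in turn, genes with an unadjusted p under 0.05 numbered 2 to 10 (4.27% to 13.7% of all genes tested), genes higher 3 to 9, groups that did not overlap 1 to 2 (1.12% to 3.55% of all genes tested), and all genes past adjustment 1 to 4. Signs turned for *Cpt2* (-0.024 to 0.022), *Crot* (-0.11 to 0.011), *Acot3* (-0.18 to 0.20), *Ppara* (-0.17 to 0.043), *Cpt1a* (-0.032 to 0.053), *Acadvl* (-0.048 to 0.076) and *Etfb* (-0.0094 to 0.092). They also turned for *Acot1* (-0.19 to 0.030), *Pdk4* (-0.32 to 0.065), *Hadhb* (-0.084 to 0.010), *Cyp4a14* (-0.019 to 0.15), *Acaa1a* (-0.086 to 0.0022) and *Acot4* (-0.020 to 0.22). The cause was not tested.

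Without AAV8-Control 2 and AAV8-Test 4, r with *Cyp4a14* was -0.067 for *Acot1*, -0.15 for *Pdk4* and -0.20 for *Vnn1*. On deviations from the group means, *Cyp4a10* kept an r of 0.78 with an adjusted permutation p of 0.122.

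A replicate block gave 8 genes of the set with an unadjusted p under 0.05, adding *Eci1*, *Crat* and *Vnn1* to the 5, beside 10.1% of all genes tested in place of 7.95%, and 5 of all genes past adjustment. The numbers are not known to pair the livers: deviations of same-numbered livers correlated at 0.128, 0.209, 0.0751, 0.314 and 0.197, and for 4 of 5 numbers that was the best match. The lowest mean in the set was 15.9 CPM, where 3 reads are 0.0845 to 0.154 CPM.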
